A study of Mus musculus with 12 samples.

Results

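The Sox genes followed here were 9 transcription factor genes known from neural progenitors and young neurons, Sox1, Sox2, Sox3, Sox21, Sox8, Sox9, Sox4, Sox11 and Sox12, out of 23513 genes in the count tables. They were taken as a fixed list, and 10 other Sox genes were in the tables. Of these, Sox5 and Sox6 had far higher counts (up to 9103 and 3487 CPM in a cluster), and CPM are not adjusted for gene length. Each member was followed in all 25 clusters and 11 embryos by snRNAseq, which counts RNA molecules in single nuclei by their unique molecular identifiers (UMIs). Pregnant C57BL/6J mice received saline or 2.5 g/kg EtOH by intraperitoneal injection once daily for 6 days from E8.5, and the cortex was taken at embryonic day 14. There were 5 saline embryos, S1-1 and S1-2 of one dam and S2-1, S2-2, S2-4 of another. The 6 EtOH embryos were littermates E1-1 and E1-2, with E2-1 to E2-4 carried by the other dam. Batch 1 held litters S1 and E1, while batch 2 held S2 and E2. With 2 dams per treatment, littermates are not independent of each other. The clusters of the authors fell into radial glial cells (RGC, 5 clusters), intermediate progenitor cells (IPC, 2), projection neurons (PN, 8), interneurons (Int, 7) and 3 others. All 5 RGC, 4 IPC and 5 interneuron markers were highest in a cluster of their own class, as were 4 of 5 PN markers.

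Sox proteins are transcription factors that bind DNA through an HMG box and often act beside a partner factor such as a POU protein. SoxB1 proteins (Sox1, Sox2 and Sox3) keep neural progenitors undifferentiated, and the SoxB2 protein Sox21 opposes them. The SoxE proteins Sox8 and Sox9 are known from progenitors that acquire glial competence, and the SoxC proteins Sox4, Sox11 and Sox12 from committed progenitors and young neurons, where they activate neuronal genes.

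In GENCODE M21 on GRCm38, 6 of the 9 genes have a single exon. Sox2 (chr3:34650405-34652461, plus strand) lies within Sox2ot and Sox1 (chr8:12395295-12400126, plus strand) within Sox1ot, both on the same strand, and neither of the longer genes was analysed here. Sox4 (chr13:28948919-28953713, minus strand) overlaps the antisense lincRNA Gm26735, and Sox21 (chr14:118233232-118237030, minus strand) overlaps Gm4675. The libraries came from a 10x 3′ kit, which keeps the strand of a read, and Cell Ranger, run with its defaults, counts reads on the sense strand of a gene. Sox11 (chr12:27334264-27342574, minus strand), Sox12 (chr2:152393611-152398063, minus strand), Sox9 (chr11:112782224-112787760, plus strand) and Sox3 (chrX:60891366-60893430, minus strand) overlap no other annotated gene. Sox8 (chr17:25565892-25570686, minus strand) overlaps the antisense gene 2810468N07Rik.

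RefSeq promoters (GRCm38.p6) were found for 7 of the 9 genes. The 250 bases before the start are shown for the 3 SoxC genes, the family that holds Sox11, and for Sox2, the best known SoxB1 gene. They lie at chr13:28953700-28953949 (minus strand), chr12:27342719-27342968 (minus), chr2:152398047-152398296 (minus) and chr3:34649745-34649994 (plus). The RefSeq starts of Sox2 and Sox11 lie upstream of the GENCODE genes given above, so these 2 stretches do not adjoin those genes. Capitals mark CCAAT, the octamer ATGCAAAT that POU proteins bind, and the Sox-type letters ACAAAG and ACAATG, each searched on both strands.
Sox4: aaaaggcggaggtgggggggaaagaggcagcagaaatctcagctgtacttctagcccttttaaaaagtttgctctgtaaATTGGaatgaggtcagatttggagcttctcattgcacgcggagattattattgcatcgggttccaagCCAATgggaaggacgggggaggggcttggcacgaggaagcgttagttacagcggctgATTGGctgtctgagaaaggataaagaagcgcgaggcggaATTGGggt
Sox11: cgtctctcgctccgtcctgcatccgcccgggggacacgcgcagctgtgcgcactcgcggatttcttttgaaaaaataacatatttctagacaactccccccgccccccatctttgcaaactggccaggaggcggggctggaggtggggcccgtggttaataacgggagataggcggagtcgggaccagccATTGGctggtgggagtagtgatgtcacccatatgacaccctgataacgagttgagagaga
Sox12: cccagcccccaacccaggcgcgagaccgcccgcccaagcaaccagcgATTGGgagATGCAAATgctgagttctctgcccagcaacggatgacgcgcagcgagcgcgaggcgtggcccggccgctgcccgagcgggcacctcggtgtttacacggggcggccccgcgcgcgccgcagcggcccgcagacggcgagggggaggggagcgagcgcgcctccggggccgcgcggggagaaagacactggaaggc
Sox2: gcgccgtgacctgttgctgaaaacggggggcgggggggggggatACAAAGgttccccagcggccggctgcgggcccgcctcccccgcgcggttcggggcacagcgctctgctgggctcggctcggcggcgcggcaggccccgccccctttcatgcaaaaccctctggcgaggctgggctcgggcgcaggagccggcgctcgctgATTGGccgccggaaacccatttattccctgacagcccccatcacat
A CCAAT box was present in 5 of the 7 promoters and in 33.8% of all 32851 promoters of this length. Sox4 had 4 of them. The octamer was found in Sox12 alone among the 7, against 1.60% of all promoters, and ACAAAG in Sox2 alone, against 16.5%. ACAATG, present in 10.7% of all promoters, was in none of the 7. These matches describe the letters only.

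The saline embryos of dam S2 stood apart before any comparison of treatments. The median UMIs per nucleus was 6325 in S2-4, 8365 to 9051 in the other 4 saline embryos and 4072 to 6911 in the EtOH embryos. Malat1, a nuclear RNA, took 1.60% of the UMIs in S2-4, 1.22% to 1.39% in the other saline embryos and 1.51% to 1.74% in the EtOH embryos. Genes of ribosomal proteins took 0.235% of the UMIs in S2-2 and 0.228% in S2-4, against 0.167% to 0.184% in the other saline embryos and 0.216% to 0.241% in the EtOH embryos. Of RGC nuclei, 51.3% lay in Cluster 3 in S2-1 and 14.2% in S2-2, and the other embryos lay between them. The 3 pairs of S2 embryos differed by a chi-square per gene of 48.7 to 89.7, and the 8 other pairs of littermates by 4.33 to 12.3. In other measures S2-4 lay among the saline embryos. It had 7215 nuclei, against 4437 to 7639 in the other saline embryos and 2346 to 4928 in the EtOH embryos. Its total UMIs were 53924776, against 44017566 to 83061737 in the other saline embryos and 14078316 to 38034349 in the EtOH embryos. Pairs of embryos shared 1 to 18 cell barcodes, at most 0.384% of the smaller library. No value in these files checks the treatment label of S2-4, and each comparison of saline with EtOH rests on that label. The calls are therefore given with S2-4 and without it, and the counts of calls also without each other embryo.

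**Figure D1:**
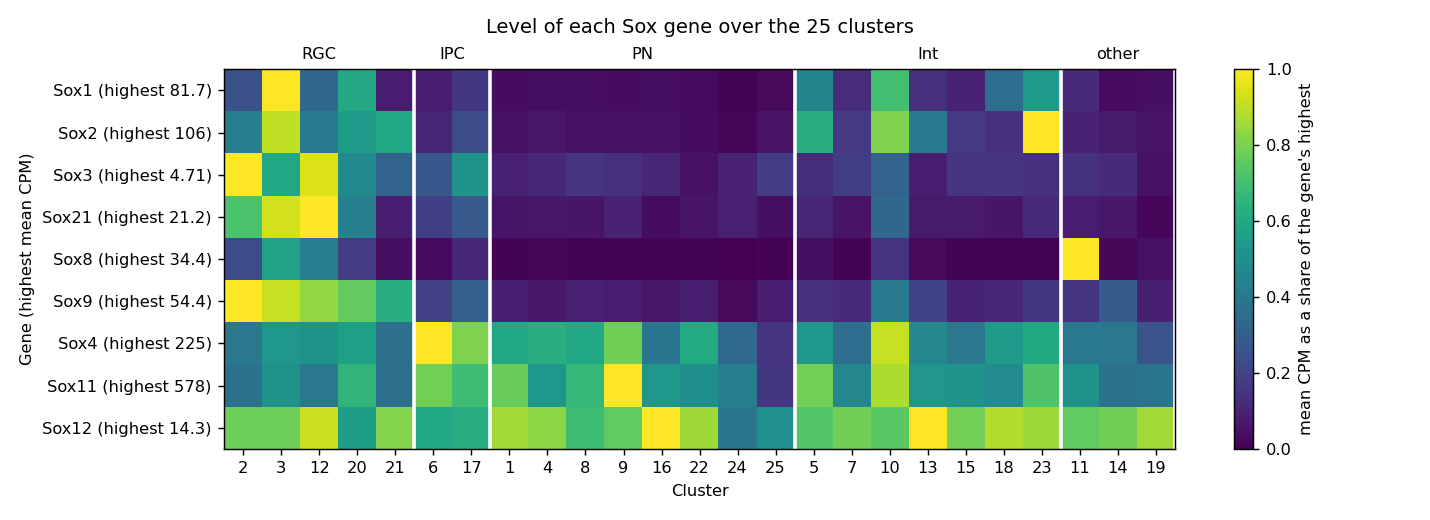
Mean CPM of each gene (rows) in the 25 clusters (columns, grouped by major cell type), as a share of the highest cluster mean of that gene, which stands in parentheses. The SoxB1, SoxB2 and SoxE genes are dark in the PN clusters, while Sox4, Sox11 and Sox12 are present in every cluster.

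Levels were expressed as CPM of the UMIs summed per embryo and cluster, averaged over embryos with at least 10 nuclei, and compared within a gene. The clusters were built from these genes as well, so the levels are a description. Sox1 and Sox2, both SoxB1, were highest in clusters of the interneuron lineage. In Cluster 3, RGC-type interneuron precursors, Sox1 reached 81.7 ± 9.47 CPM (SD, n = 11), against 57.2 CPM in the late interneuron precursors of Cluster 10. Cluster 3 was above Cluster 10 in 11 of 11 embryos. RGC Cluster 20 followed at 49.3 CPM, from 16.5 to 88.7 CPM in 9 embryos, above interneuron Clusters 23, 5 and 18, which had 43.8, 36.8 and 29.1 CPM, and did not differ from Clusters 10 and 23 beyond the spread. RGC Cluster 2 had 20.2 ± 4.95 CPM and cortical hem RGC Cluster 21 had 6.15 CPM of Sox1. Sox2 was at 106 ± 18.4 CPM (SD, n = 10) in Cluster 23, migrating interneurons. Cluster 3 had 95.5 CPM, while 85.3 CPM was measured in Cluster 10. Cluster 23 exceeded Cluster 3 in 7 of 10 embryos, and these neighbours did not differ beyond their spread. Unlike Sox1, Sox2 kept a level of 63.2 CPM in Cluster 21, and it was at 57.9 CPM in Cluster 20. In the 8 PN clusters Sox2 lay between 2.03 and 6.71 CPM.

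Sox3, the third SoxB1 gene, was near the limit of these data, with 626 UMIs in all 50550 nuclei. Cluster 2 held its highest level, 4.71 ± 1.86 CPM (SD, n = 11), and non-mitotic RGC Cluster 12 had 4.47 CPM. No neighbours in its order of 25 clusters differed by more than the larger SD. Sox21 had 21.2 ± 5.70 CPM (SD, n = 11) in Cluster 12. Its level was 19.7 CPM in Cluster 3, while Cluster 2 had 15.2 CPM. Like Sox1, it was low in Cluster 21, at 1.77 CPM.

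The SoxE genes had different leading clusters. Sox9 was highest in the 5 RGC clusters, from 54.4 ± 7.46 CPM (SD, n = 11) in Cluster 2 to 34.4 CPM in Cluster 21, and the step from Cluster 21 to Cluster 10 (22.2 CPM) was the only one beyond the spread of neighbours. Sox8 was highest outside the progenitors, at 34.4 ± 7.18 CPM (SD, n = 11) in striatal interneuron Cluster 11. Cluster 3 followed with 19.8 CPM and was lower than Cluster 11 in 10 of 11 embryos. Sox10, the remaining SoxE gene and a marker of oligodendrocyte precursors, reached at most 0.958 CPM in any cluster.

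Sox4 and Sox11 were present in every cluster, with Sox4 highest in IPC and Sox11 in early PN. Sox4 was highest in non-mitotic IPC Cluster 6, at 225 ± 19.1 CPM (SD, n = 11), with 205 CPM in Cluster 10, 182 CPM in mitotic IPC Cluster 17 and 176 CPM in early PN Cluster 9. Sox11 was highest in Cluster 9, at 578 ± 128 CPM (SD, n = 11), while Cluster 10 had 507 CPM and Cluster 6 had 456 CPM. The top cluster exceeded Cluster 10 in 9 of 11 embryos for Sox4 and in 10 of 11 for Sox11. Neither of these steps was beyond the spread of neighbours. Both were lowest in PN Cluster 25, at 34.0 CPM of Sox4 and 90.9 CPM of Sox11. Their highest level was 6.61 times the lowest for Sox4 and 6.36 times for Sox11. Sox12 showed little variation, with cluster means between 5.62 and 14.3 CPM and no neighbours apart beyond their spread.

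Over the 25 cluster means of log2(CPM + 1), Pearson's r between members was highest for Sox3 with Sox21 (0.92), Sox1 with Sox2 (0.90), Sox4 with Sox11 (0.87) and Sox3 with Sox9 (0.86). Clusters share libraries and depth, and these are descriptions. Among 11613 other genes, the one most like Sox4 was Gm26735 (r = 0.98), the antisense lincRNA that overlaps it. Polr3k and Phf21b followed. The genes most like Sox11 were Zfp68 (r = 0.94), Ranbp10 and Rbm6, those most like Sox2 were Gm42695 (r = 0.97), Pld1 and Qk, and those most like Sox1 were Entpd1 (r = 0.90), Qk and Gm42695. Sox3 was closest to Creb5, Kcnj10 and Tacc1, Sox21 to Napepld, Vit and Acss1, Sox9 to Mgmt, Pon2 and Pdpn, and Sox8 to Lonrf3, Spata13 and Alpl. For Sox12 the closest gene was Tcf20, with r = 0.68, before Csrp2 and Lsm11.

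Detection followed the levels. With each nucleus thinned to 2000 UMIs, the expected share of nuclei with a UMI of Sox11 was 36.3% ± 9.45 (SD, n = 11) in RGC, 54.9% in IPC, 51.7% in PN and 49.8% in Int. Before thinning these shares were 67.7%, 83.4%, 86.9% and 83.1%. For Sox9 the thinned share was 9.29% ± 1.27 in RGC, 2.05% in IPC, 1.83% in Int and 0.837% in PN, a class that should lack it. The median UMIs per nucleus was 6478 in RGC and 7630 in PN. RNA free in the droplets was not measured.

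Whether EtOH changed these genes was tested on counts summed per embryo, and a gene was called at an adjusted p under 0.05 (edgeR) with a fold change beyond the limits the study used. Sox11 was lower after EtOH in all 4 major cell types, Sox9 was lower in RGC and Int, and no member was called higher. In the 4 cell types 31 of 36 pairs of a gene and a cell type passed the filter on low counts, of which 6 were called, all lower. With batch as a covariate 5 were called, and Sox11 in IPC was not (-0.73, adjusted p = 0.0581, edgeR). Counts summed per dam (fitted with batch as a covariate) and the dam as a random block (limma voom) also left 5 calls each. The first was without Sox11 in PN (-0.57, adjusted p = 0.124, edgeR) and the second without Sox11 in IPC (-0.70, adjusted p = 0.0614, limma). Of all genes tested, 1.48% were called lower in RGC, 0.64% in IPC, 2.36% in PN and 1.23% in Int. An unadjusted p under 0.05 (edgeR) was reached by 18 of the 31 pairs. Of all genes, 4263 of 14282 in RGC, 2736 of 11558 in IPC, 4783 of 14604 in PN and 4107 of 14525 in Int reached it as well. For the other fits and tests below, no share of all genes at an unadjusted p under 0.05 is given.

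Sox11 in RGC was at 348, 321, 399, 351 and 208 CPM in S1-1, S1-2, S2-1, S2-2 and S2-4, and at 186, 196, 216, 202, 163 and 197 CPM in E1-1, E1-2 and E2-1 to E2-4. S2-4 lay within the EtOH range, and the other 4 saline embryos lay above all EtOH embryos. The log2 fold change was -0.83 ± 0.15 (SE, adjusted p = 0.0402, edgeR). In IPC the saline embryos had 590, 586, 626, 580 and, in S2-4, 347 CPM, against 296 to 408 CPM in EtOH embryos, a log2 fold change of -0.73 ± 0.15 (SE, adjusted p = 0.0476, edgeR). Again only S2-4 overlapped the EtOH embryos. In PN the saline embryos had 515, 462, 466, 463 and, in S2-4, 319 CPM, against 292 to 350 CPM, a log2 fold change of -0.54 ± 0.12 (SE, adjusted p = 0.0280, edgeR). In Int, Sox11 was at 440 to 495 CPM in 4 saline embryos, 329 CPM in S2-4 and 282 to 317 CPM in EtOH embryos. The log2 fold change in Int was -0.64 ± 0.11 (SE, adjusted p = 0.0180, edgeR).

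**Figure D2:**
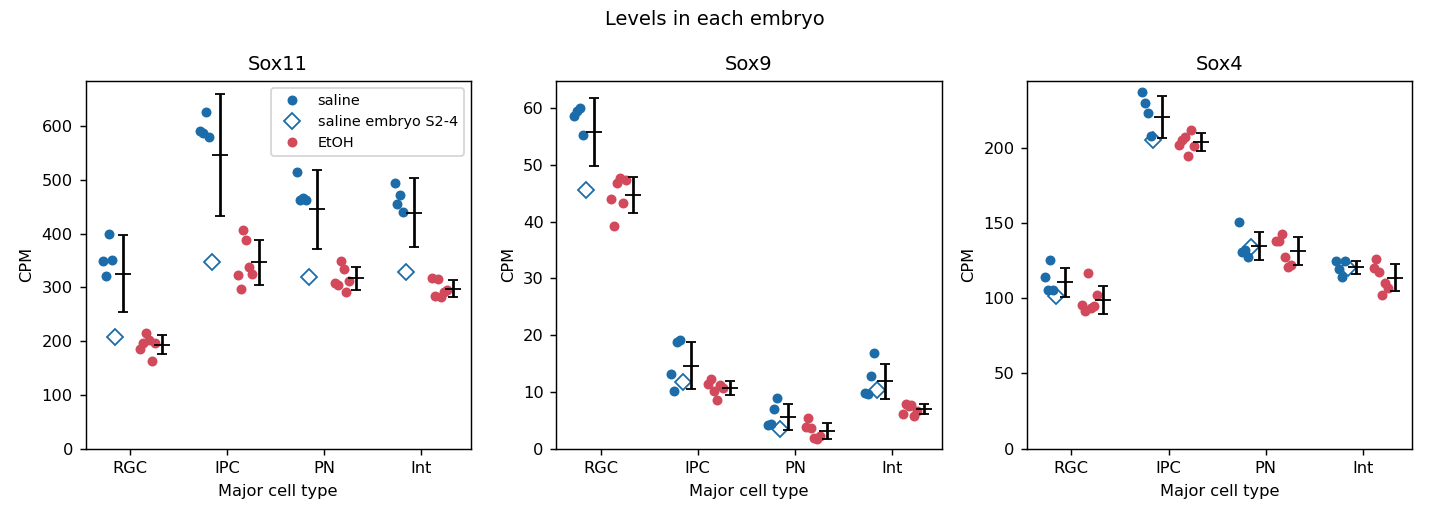
CPM of Sox11, Sox9 and Sox4 in each embryo (points) by major cell type, with the mean and SD of each group (black bars). The open diamond is saline embryo S2-4, which sits at 208 CPM of Sox11 in RGC, among the EtOH embryos at 163 to 216 CPM.

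The Sox11 calls depended on single embryos. Without S2-4 the log2 fold changes were -0.98 in RGC, -0.86 in IPC, -0.65 in PN and -0.75 in Int, and the calls over all members rose from 6 to 13 of 31, while 5.06% of all pairs of a gene and a cell type were then called lower, against 1.47% with S2-4. The 13 were Sox11 and Sox9 in all 4 cell types, Sox2 in RGC (-0.49), IPC (-0.43) and PN (-0.74), and Sox21 in RGC (-0.61) and PN (-1.28). The calls in PN other than Sox11 rest on low levels. Their means in saline without S2-4 and in EtOH were 2.19 and 0.828 CPM for Sox21, 6.80 and 4.17 CPM for Sox2, and 6.07 and 3.15 CPM for Sox9. Batch 1 alone also lacks S2-4 and holds a single litter per treatment. In it Sox9 was at 0.07 in PN and -0.13 in IPC and was not called there (adjusted p = 0.876 and 0.830, edgeR). Without S1-1, S1-2, S2-1 or E2-2 there were 0 calls, and at most 0.00181% of all pairs were called lower in these fits. There 14 to 16 of the 31 pairs had an unadjusted p under 0.05 (edgeR), a count with no share of all genes beside it. Without E2-1 there was 1 call, without S2-2, E1-2 or E2-3 there were 2, and without E1-1 or E2-4 there were 3, while 0.093% to 0.847% of all pairs were called lower in these 6 fits. Sox11 stayed lower with each embryo left out, with log2 fold changes between -0.98 and -0.75 in RGC and between -0.75 and -0.57 in Int.

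Depth per nucleus moved with treatment, and S2-4 had the depth of an EtOH embryo. In fits with the log2 median UMIs per nucleus as a covariate, which were added after seeing the data, the log2 fold change of Sox11 was -0.58 (adjusted p = 0.601, edgeR) in RGC, -0.40 in IPC, -0.31 in PN and -0.49 in Int, and 0 members were called in the cell types, with 5 at an unadjusted p under 0.05. Over all genes 0.00512% of pairs were called lower with this covariate. With nuclei thinned to 2000 UMIs, Sox11 was called in RGC (-0.85), PN (-0.52) and Int (-0.61), and in IPC it was at -0.66 and not called (adjusted p = 0.101, edgeR). In batch 1 alone its log2 fold changes were -0.92 in RGC, -1.06 in IPC, -0.78 in PN and -0.80 in Int, and in batch 2 alone -0.77, -0.54, -0.38 and -0.51. Both of these fits were also added after seeing the data. Each sets a single saline litter against a single EtOH litter, with 2 against 2 embryos in batch 1. Treatment and litter cannot be told apart within a batch, and these calls count littermates as replicates. Batch 1 alone gave 10 calls, with 4.47% of all pairs called lower, and batch 2 alone, which holds S2-4, gave 0 with 11 at an unadjusted p under 0.05 (edgeR). No gene at all was called in the 4 cell types in batch 2 alone. Treatment and depth cannot be told apart in the embryos other than S2-4.

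**Figure D3:**
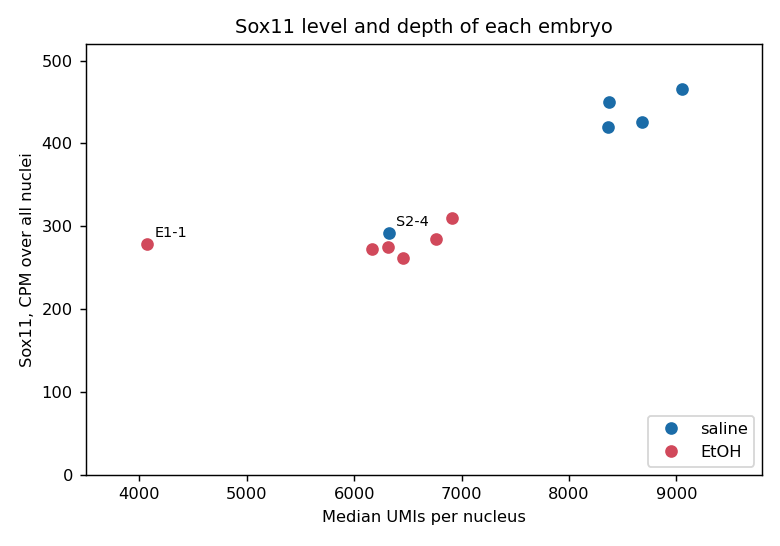
Sox11 over all nuclei (vertical axis, CPM) against the median UMIs per nucleus (horizontal axis) in each embryo. Saline embryo S2-4, at 6325 UMIs and 291 CPM, lies among the EtOH embryos, which range from 261 to 310 CPM, and the other 4 saline embryos lie above 419 CPM.

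Sox9 in Int was called with S2-4 included and without it. The saline embryos had 9.86, 9.63, 12.7, 16.9 and 10.4 CPM and the EtOH embryos 6.19, 7.92, 7.59, 7.63, 5.79 and 6.60 CPM, in the order used above. The log2 fold change was -0.81 ± 0.15 (SE, adjusted p = 0.0225, edgeR), -0.86 without S2-4 and -0.64 with depth as a covariate, where it was not called (adjusted p = 0.196, edgeR). The call was also lost without S1-1, S1-2, S2-1, E2-1 or E2-2, with adjusted p up to 0.0739 (edgeR). In thinned nuclei the log2 fold change was -0.85 (adjusted p = 0.0583, edgeR), in batch 1 alone -0.59 (adjusted p = 0.133) and in batch 2 alone -0.94 (adjusted p = 0.273), and it was called in none of these. The summed CPM of the 5 RGC markers in Int was 105 to 153 in saline and 110 to 158 in EtOH embryos, and 3 of the 5 had a lower mean after EtOH. In RGC, Sox9 was at 45.5 to 60.0 CPM in saline and 39.3 to 47.6 CPM in EtOH embryos, and the overlap came from S2-4 at 45.5 CPM. The log2 fold change in RGC was -0.40 ± 0.09 (SE, adjusted p = 0.0402, edgeR) and was -0.48 without S2-4, and leaving out any one of the other 10 embryos ended the call. It was also not called with depth as a covariate (-0.23, adjusted p = 0.601, edgeR), in thinned nuclei (-0.35, adjusted p = 0.0920) or in batch 2 alone (-0.26), and it was called in batch 1 alone (-0.61). The summed RGC markers in RGC went the other way, at 726 to 965 CPM in saline and 947 to 1160 CPM in EtOH embryos, and 0 of the 5 had a lower mean after EtOH.

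Summed markers of the cell types were compared by their ranges, with no test, and 2 of 40 sums did not overlap between the groups. The 4 microglial markers summed to 6.74 to 14.1 CPM in Int of saline and 14.4 to 21.3 CPM of EtOH embryos, and S2-4 was the highest saline embryo. They summed to 7.04 to 24.7 and 21.4 to 32.2 CPM in RGC, with means of 6.64 and 10.8 CPM in IPC, and to 3.52 to 7.09 and 6.30 to 9.64 CPM in PN. Of these 4 markers, 1 had a lower mean after EtOH in Int, 1 in PN, 2 in IPC and 0 in RGC. The 4 IPC markers summed to 40.5 to 60.1 CPM in PN of saline and 30.0 to 39.9 CPM of EtOH embryos, and all 4 had a lower mean after EtOH. All 4 fibroblast markers had a lower mean after EtOH in each of the 4 cell types, and their sum in Int was 3.53 to 18.2 CPM in saline and 1.82 to 5.18 CPM in EtOH embryos. The 5 interneuron markers in PN summed to 51.9 to 128 and 24.9 to 61.3 CPM, all with a lower mean after EtOH. The 5 markers of oligodendrocyte precursors in RGC summed to 9.54 to 14.1 and 8.12 to 17.9 CPM, and 1 of the 5 had a lower mean after EtOH. No marker was at 0 in all embryos. The part of these markers in the Sox9 and Sox11 results was not tested.

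**Figure D4:**
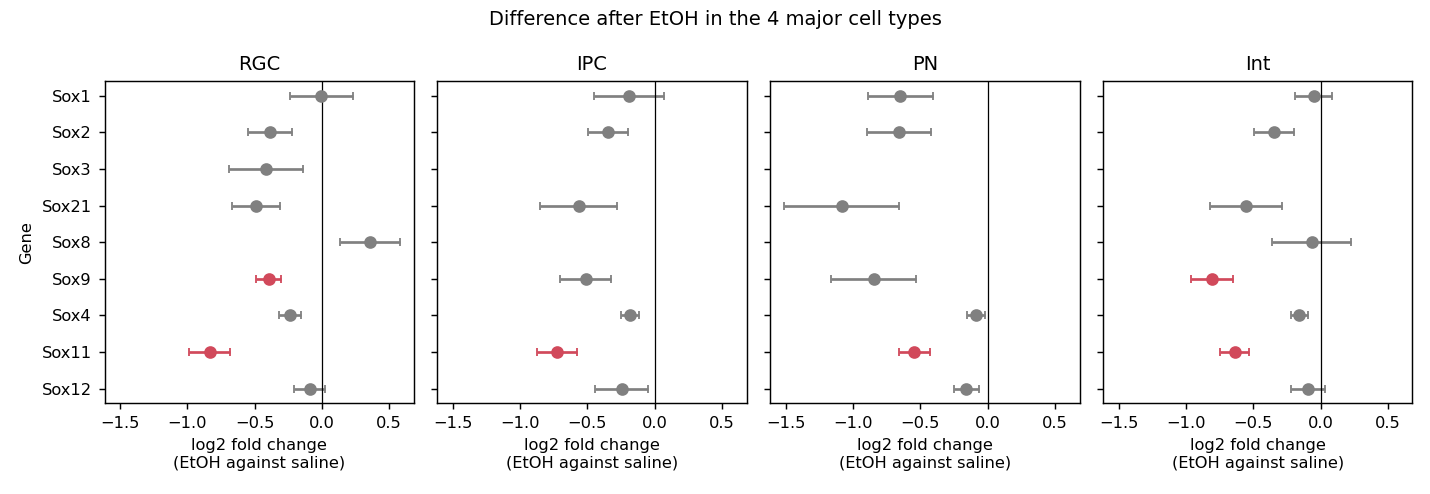
Log2 fold change (EtOH against saline, horizontal axis) of each gene in RGC, IPC, PN and Int, with SE bars. Red points passed the adjusted p and fold limits, which were Sox11 in all 4 cell types and Sox9 in RGC and Int, and a gene without a point did not pass the filter on low counts.

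The remaining members were not called in the 4 cell types with S2-4 included, and the calls of Sox2 and Sox21 without it are given above. Without S2-4, Sox4 had an adjusted p of 0.0124 in RGC, 0.0197 in IPC and 0.0393 in Int (edgeR) but did not pass the fold limit. Sox3 passed the filter in RGC only (-0.41) and Sox8 in RGC and Int, while Sox1 ranged from -0.65 in PN to near 0 in RGC. Sox2 had log2 fold changes between -0.66 and -0.35, Sox21 between -1.08 and -0.49, Sox4 between -0.24 and -0.09 and Sox12 between -0.25 and -0.09. Sox8 in RGC was the only value above 0, at 0.36 ± 0.22 (SE, adjusted p = 0.290, edgeR), and it was 0.18 without S2-2, 0.08 in thinned nuclei, -0.03 in batch 1 alone and 0.60 in batch 2 alone. Sox1 in RGC was at -0.0029 ± 0.23 (SE, adjusted p = 0.996, edgeR), with 20.5 to 58.0 CPM in saline embryos. The share of RGC nuclei in Cluster 3, where Sox1 was highest, was 14.2% in S2-2 and 51.3% in S2-1, which had the lowest and the highest Sox1.

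In single clusters 122 of 225 pairs of a gene and a cluster passed the filter, and 10 were called, all lower. Over all genes and clusters 0.792% of pairs were called in either direction and 0.35% lower. Sox11 was called in Clusters 2, 3, 5, 8, 11, 12 and 15, and its log2 fold change was below 0 in 25 of 25 clusters, between -0.86 (Cluster 3) and -0.46. In Cluster 3 Sox11 was at 269 to 456 CPM in saline and 195 to 257 CPM in EtOH embryos. Sox4 was called in Cluster 3 (-0.43 ± 0.10, SE, adjusted p = 0.0378, edgeR), and Sox2 (-0.43 ± 0.11, SE, adjusted p = 0.0484, edgeR) and Sox9 (-1.14 ± 0.27, SE, adjusted p = 0.0412, edgeR) in Cluster 5, migrating interneurons. The level of Sox9 in Cluster 5 was low, at 7.80 ± 4.31 CPM (SD, n = 11). With depth as a covariate 0 of 132 pairs were called in clusters, with 21 at an unadjusted p under 0.05 (edgeR). Over all genes and clusters 0.00124% of pairs were called lower with this covariate, so hardly any gene was called. With batch as a covariate 6 calls were left, without Sox11 in Clusters 2, 5 and 12 and Sox2 in Cluster 5. Without S2-4 the log2 fold changes were -0.98 for Sox11 and -0.48 for Sox4 in Cluster 3, and -0.49 for Sox2 and -1.21 for Sox9 in Cluster 5, all called. Without any one of the other 10 embryos the calls of Sox4, Sox2 and Sox9 were lost. The number of calls rose to 33 of 121 without S2-4, where 2.61% of all pairs were called lower, was 0 without S1-1, S1-2, E2-1 or E2-2, 1 without S2-2, E1-2, E2-3 or E2-4, 2 without S2-1 and 4 without E1-1. Without any one embryo other than S2-4, 0.0229% to 0.158% of all pairs were called lower.

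The share of nuclei with a UMI gave 7 of 36 differences at an adjusted p under 0.05 (two-sided exact permutation test over 462 splits, thinned to 2000 UMIs), all lower after EtOH. The splits exchange single embryos, while EtOH was given to dams, 2 per treatment. These p-values therefore count littermates as replicates, and no test with the dam as the unit was run on the shares. The largest unadjusted p among them was 0.00866, and of all pairs of a cell type and a gene of at least 1 CPM 3.73% were lower at that p. Sox11 was detected in 44.6% ± 7.49 of RGC in saline and 29.5% ± 3.02 in EtOH embryos (SD, n = 5 and 6, exact permutation test, adjusted p = 0.0445), and in 56.4% and 44.2% of Int (exact permutation test, adjusted p = 0.0390). It also differed in IPC and PN, as did Sox9 in RGC, IPC and Int. The count was 11 without S2-4 and 0 without any one of the other 10 embryos, and no share of all genes was counted with an embryo left out. With labels exchanged within batches only, 0 differences passed the adjustment, and 14 had an unadjusted p under 0.05 (exact permutation test).

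Whether the effect of EtOH differed between cell types was tested in 54 pairs, and 0 passed the adjustment with S2-4 or without it (exact permutation test), with 5 at an unadjusted p under 0.05. The smallest was for Sox11, whose log2 difference was 0.25 more negative in RGC than in PN (effect in RGC minus effect in PN, -0.25, exact permutation test, p = 0.00216, the smallest these embryos can give, adjusted p = 0.117). These splits, too, exchange single embryos and not dams.

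Progenitors were also split by a UMI of Top2a or Mki67, which mark cycling cells, a readout not used to choose the genes. Mki67 was itself lower after EtOH in RGC (-0.38), IPC (-0.39) and Int (-0.57) and in Clusters 3, 8 and 14, while Top2a was at 0.08 in RGC and 0.06 in IPC and was not called. Without S2-4 Mki67 was called at -0.38 in RGC, -0.39 in IPC and -0.45 in Int. With depth as a covariate it was called in Int (-0.83) and not in RGC (-0.42) or IPC (-0.44), and with batch as a covariate it was not called in IPC or Cluster 14. Its call in RGC was lost without any embryo but S2-2 or S2-4, in IPC without any but S1-1 or S2-4 and in Int without any but S2-2, E1-1 or S2-4. The comparison below is within embryos, over both treatments, and the part of Mki67 in the Sox results was not tested. Of 18 differences 6 passed, with unadjusted p up to 0.0107, a p that 24.9% of all genes of at least 1 CPM reached in RGC and IPC. Such differences were thus common among all genes, and the values below describe single members. Within IPC, cycling nuclei had more Sox2 and less Sox4. Sox2 was at 21.7 ± 3.24 CPM in cycling and 9.88 ± 2.92 CPM in other IPC nuclei (SD, n = 11), higher in 11 of 11 embryos (exact sign-flip permutation test, adjusted p = 0.00879). Sox4 was at 193 ± 20.7 CPM in cycling and 226 ± 15.9 CPM in other IPC nuclei, lower in 10 of 11 embryos (exact sign-flip permutation test, adjusted p = 0.0132). In RGC, Sox4 was at 96.0 ± 13.3 CPM in cycling and 125 ± 12.2 CPM in other nuclei, lower in 11 of 11 embryos (exact sign-flip permutation test, adjusted p = 0.00879). Sox2 in RGC was at 63.2 and 59.4 CPM and did not pass (exact sign-flip permutation test, adjusted p = 0.277). Sox1 and Sox8 were higher and Sox11 lower in cycling IPC nuclei, and Sox8 no longer passed without any one of S1-1, S2-2, S2-4, E1-1, E1-2, E2-2, E2-3 or E2-4 (exact sign-flip permutation test, adjusted p up to 0.0645, with all embryos 0.0322). Cycling IPC nuclei had a median of 7474 UMIs and the others 5359, and after thinning to 2000 UMIs 2 of the 6 differences passed, those of Sox4 in RGC and Sox2 in IPC. They had unadjusted p up to 0.00195, which 8.66% of all genes reached. Sox1 in IPC was then at -0.21 in place of 0.87 (log2).

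**Figure D5:**
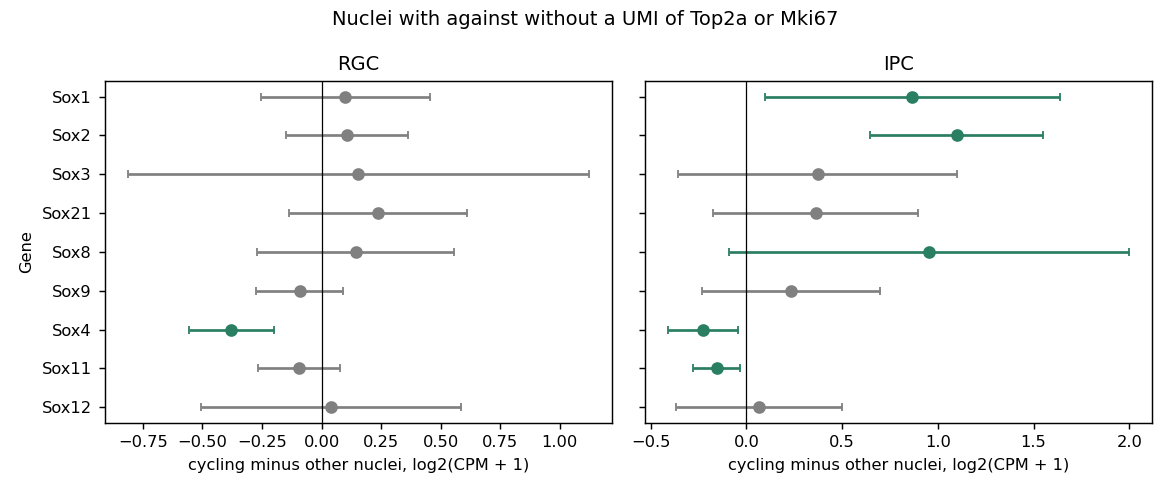
Mean within-embryo difference in log2(CPM + 1) between nuclei with and without a UMI of Top2a or Mki67, with the SD over 11 embryos as bars, in RGC and IPC. Green points passed the adjusted p, with Sox2 in IPC at 1.10 and Sox4 in RGC at -0.38.

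Of 10 other Sox genes in the tables, 3 or 4 passed the filter in each cell type, and Sox6, a SoxD gene, was the only one called, in PN (log2 fold change -1.08 ± 0.16, SE, adjusted p = 0.0235, edgeR) and in PN Clusters 1, 4 and 9. Its highest level was in interneuron Cluster 5, at 3487 CPM. All 5 interneuron markers also had a lower mean in PN after EtOH, and their part in the Sox6 result was not tested. Of 12 partners and targets of Sox proteins 11 were tested. Chd7, a chromatin remodeler that interacts with Sox2, was lower in PN (-0.56) and Int (-0.35) and in Clusters 5 (-0.47) and 8 (-0.51), and Nfia, a glial and neuronal transcription factor, was lower in Int (-0.49). Fabp7, a lipid binding protein of radial glia, was higher in Cluster 3 (0.59). Without S2-4 these stayed called, at -1.20 for Sox6 in PN, -0.63, -0.35, -0.52 and -0.56 for Chd7 in the same order, -0.49 for Nfia and 0.69 for Fabp7, and with depth as a covariate none was called. The calls of Sox6 and Chd7 in PN were lost without S1-1, S1-2, S2-1, E2-2 or E2-3, and those of Chd7 and Nfia in Int and Fabp7 in Cluster 3 without any of these or E1-2, E2-1 or E2-4. Nfia was also lost without S2-2. Chd7 in Cluster 5 was lost without S1-2, S2-1, E1-2, E2-1, E2-2 or E2-3, and in Cluster 8 without any embryo but S2-4, E1-1 or E2-4. Sox6 in Cluster 9 stayed called with each embryo left out, while in Cluster 4 it was called without S2-4 alone and not with batch as a covariate, and in Cluster 1 it was lost without any embryo but S1-2, S2-4, E1-1 or E1-2. None of the POU genes Pou3f1, Pou3f2 and Pou3f3 was called.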

How the data were processed

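Nuclei of 5 saline and 6 EtOH embryos were analysed, and 1 further saline sample was not used here. Reads were mapped by Cell Ranger on mm10, per the submitters' processing notes. The authors filtered and clustered the nuclei and deposited raw UMI counts of 23513 genes in 275 tables, 1 per embryo and cluster. No doublets were called or removed here. The Sox genes and lists were chosen with earlier results of these data known. All 9 genes, every measured gene of the Sox list by count, called partners and targets, and the 3 genes most like each member (mean of at least 10 CPM in any cluster) are named.

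Counts were summed per embryo and cluster or major cell type (at least 10 nuclei) and tested over all genes with edgeR 4.0.16 (glmQLFit robust, TMM, filterByExpr) with Benjamini-Hochberg adjustment, checked on simulated data. Shares, effect differences and cycling nuclei were compared by two-sided exact permutation tests over embryos, adjusted over 36, 54 and 18 tests. For the shares and cycling nuclei, all genes with a mean of at least 1 CPM were put through the same tests and counted at the largest unadjusted p of a member that passed. No libraries of the same dam agreed within sampling noise (chi-square per gene of at least 4.33). Errors are SDs between embryos unless SE is given. Alternatives covered normalization, tool, filters, batch, dam, depth and each embryo left out. Of the 275 tables, 9 had fewer than 10 nuclei. Python 3.11.15 and DESeq2 1.42.0 were also used.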

Additional observations from a re-analysis of the deposited data

Results flagged for a closer look

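In 72 groups of a Sox gene, a major cell type and a treatment, 3 held an embryo far from the others, and chance gives about 1 in 20. Sox11 in IPC was at 347 CPM in saline embryo S2-4, against 580 to 626 CPM in the other 4 saline embryos. Sox11 in PN was at 319 CPM in S2-4, against 462 to 515 CPM. Sox8 in RGC was at 4.88 CPM in saline embryo S2-2, against 10.6 to 11.8 CPM, and S2-2 had 14.2% of its RGC nuclei in Cluster 3.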

How the results depend on the processing

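Saline and EtOH embryos came from different dams and were not paired. Litters were blocked by batch only in the fits with batch as a covariate and in the splits within batches. The fits of counts summed per dam also had batch as a covariate. The calls in clusters (10) were 21 with DESeq2, 34 without the filter on low counts, 6 with batch as a covariate, 17 with counts summed per dam and 5 in thinned nuclei, while the pairs called lower over all genes (0.35%) were 0.455%, 1.09%, 0.225%, 0.765% and 0.343%, and the calls in major cell types (6) were 10 with DESeq2, 5 with batch as a covariate, with counts summed per dam and with the dam as a random block, and 3 in thinned nuclei, while the pairs called lower over all genes (1.47%) were 1.88%, 1.02%, 1.09%, 1.17% and 0.797%. The pairs of members tested differed as well. In clusters they were 122 in the main fits, 225 with DESeq2 and without the filter, 129 with batch as a covariate, 157 per dam and 64 in thinned nuclei. In cell types they were 31 in the main fits, 36 with DESeq2 and per dam, and 22 in thinned nuclei. The fits with depth as a covariate, in batch 1 alone and in batch 2 alone were chosen after seeing the data. With depth as a covariate or in batch 2 alone both counts were 0. Over all genes 0.00124% and 0.0107% of pairs in clusters were called lower in these fits. Batch 1 alone gave 10 calls in cell types. With each embryo left out the counts were 0 to 33 in clusters and 0 to 13 in cell types. The shares (7) were 22 without thinning, 2 at 1000 UMIs, 0 within batches and 0 to 11 with each embryo left out. For these other settings of the shares no share of all genes was counted. Their counts are therefore not read as results about the Sox genes. The differences between cell types were 0 throughout. The cycling differences (6) were 2 in thinned nuclei and 5 to 7 with each embryo left out, and Sox1 in IPC turned to -0.21 (log2) in thinned nuclei. The causes were not tested.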
